A study of Mus musculus with 4 samples.

Results

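A set of 10 genes of bone morphogenetic protein (BMP) signalling and hepcidin was followed in mouse liver with and without DDI2. It holds the ligand gene Bmp6, the inhibitor of DNA binding genes Id1, Id2, Id3 and Id4, the inhibitory Smad genes Smad6 and Smad7, the hepcidin genes Hamp and Hamp2, and Atoh8. The set was chosen from the differences between DDI2-KO and WT in these same libraries, in which Id3 and Smad7 had passed the test, and was filled up with other genes of the pathway. For that reason the differences of the 10 genes between the genotypes are given as a description, with no test. The 10 genes were found among 48709 gene identifiers with a read count, and all 10 were among the 13699 genes kept by the filter on low counts.

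The libraries came from untreated C57BL/6 mice. The 2 WT libraries were from littermates with the floxed Ddi2 allele and no Cre recombinase. The 2 DDI2-KO libraries were from DDI2 flox/flox mice that express Cre under the albumin promoter, which is active in hepatocytes, so that the other liver cells keep the gene. Both groups therefore carry the floxed allele, no sex or age is given per library, and the groups are named here by their labels. P-values measure the spread between 2 biological replicates per group.

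BMP ligands made by liver sinusoidal endothelial cells bind receptors on hepatocytes, which phosphorylate Smad1, Smad5 and Smad9, and these enter the nucleus with Smad4. Direct targets include the Id genes, Smad6, Smad7, Atoh8 and, in hepatocytes, the gene of hepcidin, the peptide hormone that lowers iron export into the blood by acting on ferroportin. Smad6 and Smad7 dampen the signal that induces them, and inflammation raises hepcidin through IL-6 and STAT3.

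The upstream sequences of both hepcidin genes are shown first, because the genes are near-identical neighbours. They were searched for short elements of the kinds that Smad proteins and STAT3 bind. Bases further upstream than the 250 shown were not searched. Of the 10 genes, 8 had an entry in the promoter table of RefSeq for GRCm38.p6, and Id1 and Smad7 had none. The sequences are the 250 bases before the RefSeq start of each gene, on the minus strand, at chr7:30944030-30944279 for Hamp and chr7:30924182-30924431 for Hamp2. Capitals mark matches to GGCGCC (a GC-rich Smad element), CAGAC (the Smad box, here on the other strand as GTCTG) and TTCNNNGAA (a STAT site), and in Hamp2 also the bases aligned to the GGCGCC of Hamp.
Hamp: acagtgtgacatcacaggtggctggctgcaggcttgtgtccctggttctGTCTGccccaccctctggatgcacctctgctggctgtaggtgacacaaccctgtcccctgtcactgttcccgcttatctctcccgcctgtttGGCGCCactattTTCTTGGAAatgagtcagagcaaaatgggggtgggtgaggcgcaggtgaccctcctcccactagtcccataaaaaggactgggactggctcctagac
Hamp2: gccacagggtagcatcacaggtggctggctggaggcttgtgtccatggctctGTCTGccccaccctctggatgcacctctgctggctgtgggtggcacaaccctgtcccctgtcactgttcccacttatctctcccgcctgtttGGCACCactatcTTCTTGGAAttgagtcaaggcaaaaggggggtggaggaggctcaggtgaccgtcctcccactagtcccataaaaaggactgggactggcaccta
The last 3 bases of the Hamp sequence lie in its first exon in the GENCODE annotation, and the Hamp2 sequence lies outside exons but inside the GENCODE extent of the gene, since 1 annotated Hamp2 transcript starts upstream of the RefSeq start.

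Over 247 aligned bases the 2 sequences shared 227, or 91.9%. Both held TTCTTGGAA, from base -97 to -89 in Hamp and from -94 to -86 in Hamp2, counted backwards from the base before the start. Both also held GTCTG, beginning at base -201 in Hamp and at -198 in Hamp2. They differed at the GC-rich element, where Hamp had GGCGCC from -109 to -104 and Hamp2 had GGCACC from -106 to -101, the substitution G4A with positions counted from the 5′ end of the element. The 26 bases around this element are set beside those of the other members with GGCGCC, on the strand of each gene, at chr7:30944123-30944148 for Hamp, chr7:30924272-30924297 for Hamp2, chr12:25096308-25096333 for Id2 and chr13:48260958-48260983 for Id4, with the element in capitals.
Hamp: ccgcctgtttGGCGCCactattttct
Hamp2: ccgcctgtttGGCACCactatcttct
Id2: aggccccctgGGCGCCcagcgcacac
Id4: cgggttgcccGGCGCCccgccctcgc
The 4 genes shared the element or its near match but not the bases beside it, apart from the hepcidin pair.

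Searched on both strands over the same 250 bases, GGCGCC was in 3 of the 8 member sequences, Hamp, Id2 and Id4, and in 9.59% of 32851 promoters of the genome outside chromosome 18. CAGAC was in 4 members, Hamp, Hamp2, Bmp6 and Id3, the last of which had 2 copies, and in 42.2% of all promoters. TTCNNNGAA was in Hamp and Hamp2 and in 7.02% of all promoters. The E-box CACGTG was in Bmp6 and Atoh8 and in 6.02% of all promoters. No 2 of these matches overlapped in a member. For Id3 and Bmp6 GENCODE places the whole window in the first exon and for Id2 161 of its 250 bases, so the RefSeq and GENCODE starts of these genes differ. Smad6 held no match. A match describes letters and not a bound site.

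The libraries differed in depth and in a few gene groups. Reads on genes numbered 34109018 and 31532247 in WT and 25582344 and 22501208 in DDI2-KO, so that 3 reads, taken as the smallest detectable level, were 0.0880 to 0.133 CPM (counts relative to the library size, scaled by TMM). Of reads on the targeted gene, Ddi2, WT libraries held 4749 and 3812 and DDI2-KO libraries 4068 and 3777 (log2 fold change 0.28, standard error or SE 0.17, Benjamini-Hochberg adjusted p = 0.349 in edgeR's quasi-likelihood F-test), but a count over the whole gene does not separate the floxed part and checks nothing. Of the 13699 genes tested, 346 had an adjusted p under 0.05 (2.53%), 182 higher in DDI2-KO (1.33%) and 164 lower (1.20%). With upper-quartile scaling the calls split into 126 higher and 191 lower. The values of WT did not overlap those of DDI2-KO for 28.0% of genes in the direction of higher and for 27.7% in the direction of lower DDI2-KO values.

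Of the 10 members, 7 were higher in DDI2-KO and 3 lower, with a median log2 fold change of 0.62 beside -0.015 over all genes tested. The genes with an adjusted p under 0.05 were Id3 and Smad7, 2 of 10, beside 2.53% of all genes, a count that the choice of the set fixed. For 5 members, Id1, Id2, Id3, Smad7 and Atoh8, both DDI2-KO libraries were above both WT libraries, beside 28.0% of all genes, and for Bmp6 both were below, beside 27.7%. The remaining 4, Id4, Smad6, Hamp and Hamp2, overlapped between the genotypes. Id3 and Smad7, for which the set was chosen, are among the 7 higher members and the 5 above WT, and they enter the median. These values therefore do not test the set. The 7 higher members stayed 7 in each alternative with all 4 libraries and were 5 without WT replicate 1 and 8 without DDI2-KO replicate 2. The median log2 fold change of the members was 0.26 without WT replicate 1 and 1.19 without WT replicate 2.

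**Figure D1:**
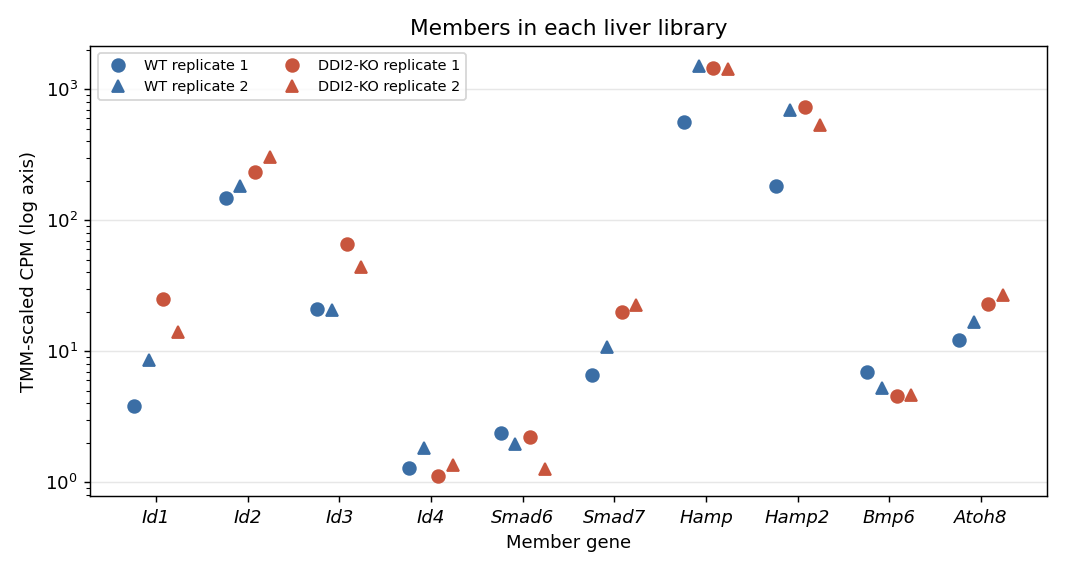
Expression of the 10 members in each of the 4 liver libraries, as TMM-scaled CPM on a log axis, with circles for replicate 1 and triangles for replicate 2, blue for WT and red for DDI2-KO. Id1, Id2, Id3, Smad7 and Atoh8 had both DDI2-KO libraries above both WT libraries, whereas WT replicate 1 alone was low for Hamp and Hamp2.

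Bmp6, the ligand gene whose product induces hepcidin when iron is loaded (ENSMUSG00000039004, chr13:38345107-38500302, plus strand), had 6.93 and 5.21 CPM in the WT libraries and 4.56 and 4.66 CPM in the DDI2-KO libraries. The WT libraries were the higher ones and the groups did not overlap, but the lower WT library was 1.12-fold above the higher DDI2-KO library. The level was 6.07 ± 1.22 CPM in WT (SD, n = 2) and 4.61 ± 0.0688 CPM in DDI2-KO (SD, n = 2), a log2 fold change of -0.40 (SE 0.24), which was -0.18 without WT replicate 1. In whole tissue, fewer cells of a type and less RNA per cell cannot be told apart. In the longest annotated transcript of Bmp6, 4.94% of 50-base stretches also occur in Txndc5, a gene beside it, so some reads of the pair cannot be assigned.

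Among the Id genes, whose proteins bind E proteins and keep them off DNA, Id1, Id2 and Id3 were higher in DDI2-KO and Id4 was not. Id1 (ENSMUSG00000042745, chr2:152736251-152737410, plus strand) had 3.84 and 8.61 CPM in WT and 25.2 and 13.9 CPM in DDI2-KO. The DDI2-KO libraries were both higher, but the libraries of each genotype also lay 2.24-fold (WT) and 1.81-fold (DDI2-KO) apart. Its level was 6.22 ± 3.37 CPM in WT (SD, n = 2) and 19.5 ± 7.94 CPM in DDI2-KO (SD, n = 2), 3.14-fold higher, with a log2 fold change of 1.65 and SE 0.46. With a library left out the log2 fold change of Id1 ran from 1.17 (without DDI2-KO replicate 1) to 2.35 (without WT replicate 2), and it was 1.19 without WT replicate 1. Its difference thus varied with each of these libraries.

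Id3 (ENSMUSG00000007872, chr4:136143497-136145755, plus strand) had 20.8 and 20.6 CPM in WT and 66.1 and 43.7 CPM in DDI2-KO. Its WT libraries were nearly equal, 1.01-fold apart, and the lower DDI2-KO library was 2.10-fold above the higher WT library. The level was 20.8 ± 0.142 CPM in WT (SD, n = 2) and 54.9 ± 15.8 CPM in DDI2-KO (SD, n = 2), with a log2 fold change of 1.40 (SE 0.21). No 50-base stretch of its longest transcript occurs in another annotated gene.

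Id2 (ENSMUSG00000020644, chr12:25093799-25097140, minus strand) had 147 and 182 CPM in WT and 233 and 306 CPM in DDI2-KO. Again the DDI2-KO libraries were higher, by 1.28-fold at the nearest values. The log2 fold change was 0.71 (SE 0.21), from 164 ± 24.5 CPM (SD, n = 2) to 270 ± 52.1 CPM (SD, n = 2). Id4 (ENSMUSG00000021379, chr13:48261228-48266026, plus strand) was low in every library, with 29 to 56 reads and 1.12 to 1.81 CPM, and its groups overlapped. Its log2 fold change was -0.32 (SE 0.36), and -0.053 without WT replicate 2.

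Of the inhibitory Smad genes, Smad7 was higher in both DDI2-KO libraries and Smad6 overlapped between the genotypes. Smad7 (ENSMUSG00000025880, chr18:75367529-75395935, plus strand), whose protein blocks receptor signals of both the BMP and the TGF-beta branch, had 6.57 and 10.7 CPM in WT and 19.9 and 22.5 CPM in DDI2-KO. The 2 DDI2-KO libraries lay close together and the lower one was 1.87-fold above the higher WT library. The level was 8.63 ± 2.90 CPM in WT (SD, n = 2) and 21.2 ± 1.81 CPM in DDI2-KO (SD, n = 2), 2.46-fold higher, with a log2 fold change of 1.30 (SE 0.25). Smad6 (ENSMUSG00000036867, chr9:63953076-64022059, minus strand), which acts mainly on the BMP branch, had 2.38 and 1.97 CPM in WT and 2.20 and 1.26 CPM in DDI2-KO, from 29 to 80 reads. Its groups overlapped, with a log2 fold change of -0.32 (SE 0.36), and without DDI2-KO replicate 2 it was 0.024.

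Atoh8 (ENSMUSG00000037621, chr6:72206177-72235577, minus strand) encodes a transcription factor that responds to BMP and iron. It had 12.2 and 16.7 CPM in WT and 22.9 and 26.9 CPM in DDI2-KO. All values of DDI2-KO were higher, by 1.37-fold at the nearest libraries. The log2 fold change was 0.78 (SE 0.20), from 14.5 ± 3.19 CPM (SD, n = 2) to 24.9 ± 2.87 CPM (SD, n = 2), 1.72-fold.

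**Figure D2:**
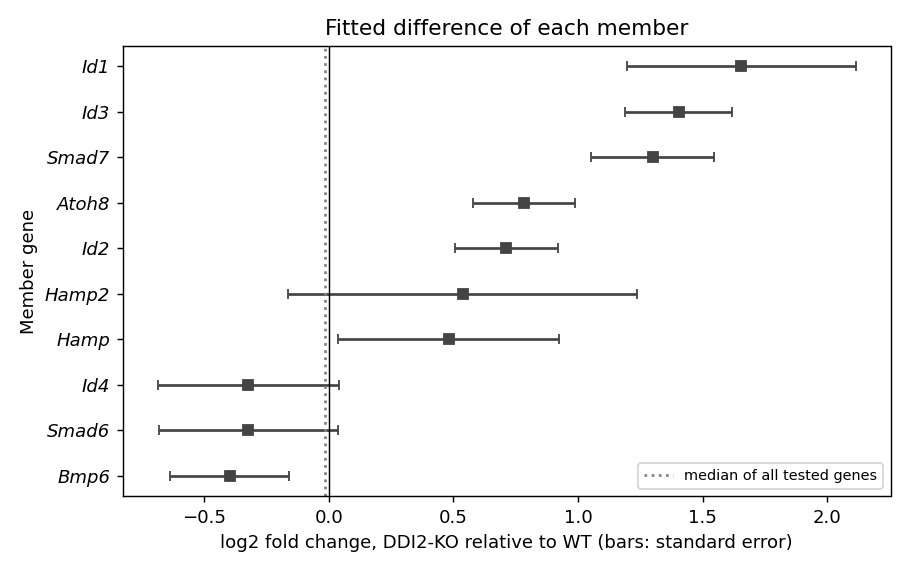
Fitted log2 fold change of DDI2-KO relative to WT for each member, with bars for the SE and a dotted line at the median of all tested genes (-0.015). Id1, Id3 and Smad7 lie between 1.30 and 1.65, and the bars of Hamp2, Id4 and Smad6 cross 0.

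The hepcidin genes overlapped between the genotypes. Hamp (ENSMUSG00000050440, chr7:30942368-30944032, minus strand) had 565 CPM in WT replicate 1 and 1494 CPM in WT replicate 2, and 1452 and 1421 CPM in the DDI2-KO libraries. One WT library was low and the other was the highest of all 4. The level was 1030 ± 657 CPM in WT (SD, n = 2) and 1437 ± 22.2 CPM in DDI2-KO (SD, n = 2), with a log2 fold change of 0.48 (SE 0.44). Without WT replicate 1 the log2 fold change of Hamp was -0.055 and without WT replicate 2 it was 1.35.

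Hamp2 (ENSMUSG00000056978, chr7:30922372-30924681, minus strand), a second hepcidin gene of the mouse, followed the same order in WT. It had 183 and 689 CPM in WT and 730 and 537 CPM in DDI2-KO. Again WT replicate 1 was the low library, and WT replicate 2 lay between the DDI2-KO libraries. The log2 fold change was 0.54 (SE 0.70), -0.12 without WT replicate 1 and 1.79 without WT replicate 2.

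The genes lie 17686 bases apart, and their longest transcripts shared 388 of 410 aligned bases (94.6%). Of 50-base stretches of the Hamp transcript, 16.6% also occur in Hamp2, whereas no 100-base stretch does. Of those of the Hamp2 transcript, 26.8% occur in some other gene and 15.5% in Hamp. Reads that fit more than 1 place were left off the genes by the counting, and the read length is not given in the sources used here, so the split of reads between the genes is uncertain. Hamp2 took 24.5% and 31.6% of the reads of both genes in WT and 33.4% and 27.4% in DDI2-KO. The share was thus lowest in the library with the least hepcidin, and the groups overlapped. Usf2, a basic helix-loop-helix factor whose gene lies 1216 bases from Hamp, did not pass the threshold (log2 fold change 0.23, SE 0.17, adjusted p = 0.455 in edgeR's quasi-likelihood F-test). Mag, the gene nearest to Hamp2 at 7499 bases, had 6 to 13 reads and was left out by the filter on low counts.

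**Figure D3:**
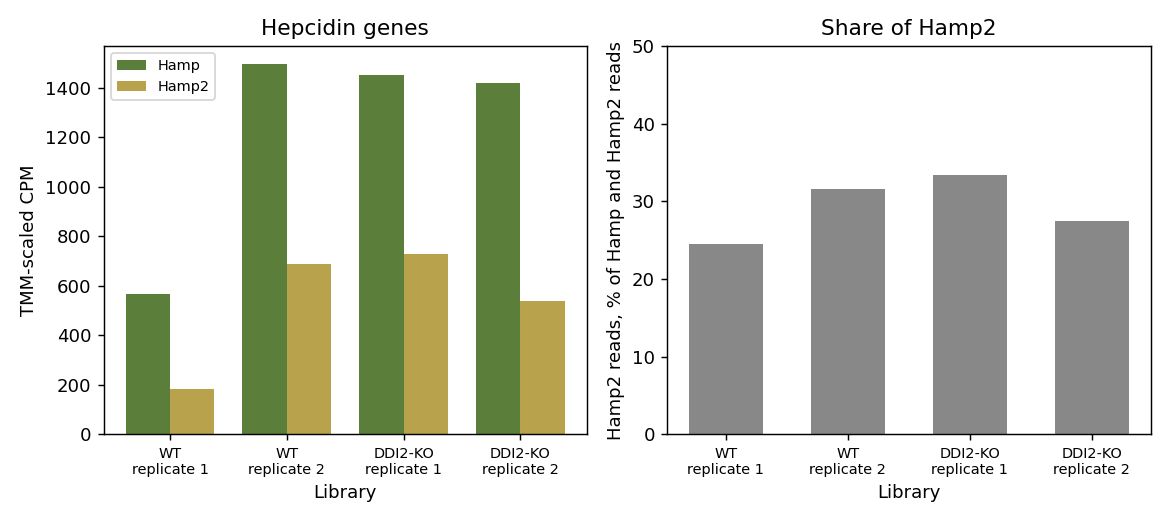
Left, TMM-scaled CPM of Hamp (green) and Hamp2 (ochre) in each library. Right, Hamp2 reads as a percentage of the reads on both genes, from 24.5% in WT replicate 1 to 33.4% in DDI2-KO replicate 1.

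WT replicate 1 was the lowest of the 4 libraries for 6 of the 10 members, Id1, Id2, Smad7, Hamp, Hamp2 and Atoh8. For Id1, Id2, Smad7 and Atoh8 both DDI2-KO libraries were above both WT libraries, so a WT library was the lowest in any case. The share of all genes that were lowest in WT replicate 1 was not computed. The WT libraries differed 2.64-fold for Hamp and 3.76-fold for Hamp2, beside a median of 1.11-fold over the 7380 genes of 10 CPM or more on average. A WT spread at least as wide as that of Hamp was found for 56 of these genes (0.759%), and one as wide as that of Hamp2 for 27 (0.366%). In DDI2-KO the libraries differed 1.02-fold for Hamp, beside a median of 1.16-fold. The wide spread of Hamp was thus in WT. WT replicate 1 also had the most alignments counted as not unique, 65.8% relative to its reads on genes, and the part of this was not tested.

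Levels between genes were compared per kilobase of exon. Over the 4 libraries the mean was 3008 CPM per kb for Hamp and 917 for Hamp2, then 89.0 for Id2, 21.1 for Id3, 11.1 for Id1, 7.85 for Atoh8, 3.30 for Smad7, 1.37 for Bmp6, 0.610 for Smad6 and 0.361 for Id4. The ranges of neighbours in this order did not overlap for Hamp and Hamp2, Hamp2 and Id2, Id2 and Id3, and Bmp6 and Smad6. They overlapped for Id3 and Id1, Id1 and Atoh8, Atoh8 and Smad7, Smad7 and Bmp6, and Smad6 and Id4, ranges that are pooled over both genotypes. Within each of the 4 libraries Id3 was above Id1, Atoh8 above Smad7 and Smad6 above Id4, whereas Id1 was above Atoh8 and Smad7 above Bmp6 in 3 of the 4. The order was the same per kilobase of the longest transcript. Stretches that Hamp and Hamp2 share with other genes were not corrected for.

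The genes whose profile over the 4 libraries was most like that of Id3, by the Euclidean distance of centred log2 CPM among 7380 genes, were the water channel gene Aqp8 (distance 0.112), the carbonic anhydrase gene Car14 (0.199) and the ribosomal protein gene Rpl39 (0.227), which has near-identical pseudogenes. For Smad7 they were Tomm40l (0.169), Ndufc1 (0.268) and Pdzk1ip1 (0.302). These 6 genes are described by their likeness over 4 libraries and were not tested.

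The other genes of the pathway were taken from 11 lists of ligands, receptors, iron sensors, Smads, inhibitors and regulators, with 77 genes, of which 69 were tested. Their median log2 fold change was 0.0076, with 35 higher and 34 lower in DDI2-KO. In edgeR's quasi-likelihood F-test, with p-values adjusted over all genes tested, 1 rose and 1 fell, beside 1.33% and 1.20% of all genes. Of these, the gene that rose is described here, and it passed the threshold in each of the 15 alternatives in which it was refitted.

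The gene that rose was Ccn1, which encodes a secreted matrix protein and responds to many stimuli besides TGF-beta. Its reads numbered 320 and 237 in WT and 663 and 929 in DDI2-KO, or 8.59 ± 1.31 CPM in WT (SD, n = 2) against 33.0 ± 10.5 CPM in DDI2-KO (SD, n = 2). This was a log2 fold change of 1.94 (SE 0.25, adjusted p = 0.0189 in edgeR's quasi-likelihood F-test), and over the alternatives the adjusted p ran from 3.83e-09 to 0.0343.

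**Figure D4:**
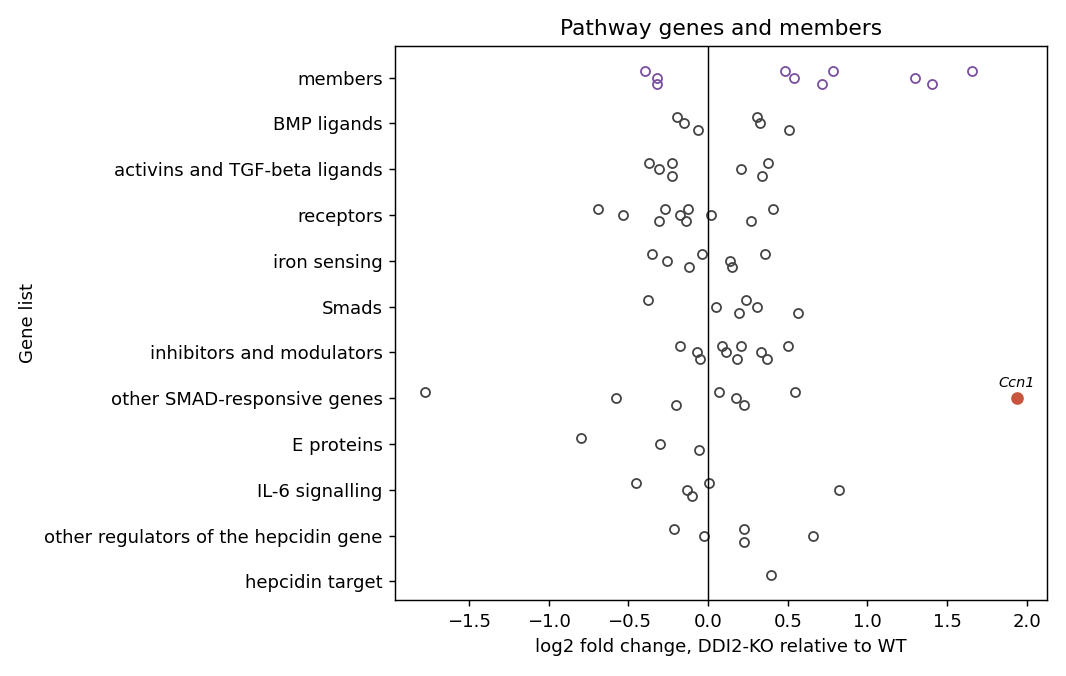
Log2 fold change of DDI2-KO relative to WT for the members (top, purple, given with no test) and for the tested genes of the 11 pathway lists. Of these tested list genes, 1 is not drawn. The filled red point is Ccn1, at 1.94 and with an adjusted p under 0.05, and the dark open circles are list genes that did not pass.

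Upstream of the members, none of the 6 other BMP ligands, the 7 activins and TGF-beta ligands or the 10 receptors tested passed the threshold. Gdf2, which encodes the circulating ligand BMP9, had 26.1 ± 2.48 CPM in WT (SD, n = 2) and 37.2 ± 2.87 CPM in DDI2-KO (SD, n = 2) (log2 fold change 0.51, adjusted p = 0.120 by edgeR). Bmp2, an endothelial ligand that keeps basal hepcidin up, had a log2 fold change of -0.15 (SE 0.22). The type II receptor gene Bmpr2 had 46.1 ± 2.64 CPM in WT (SD, n = 2) and 28.5 ± 8.76 CPM in DDI2-KO (SD, n = 2) (log2 fold change -0.69, adjusted p = 0.117 by edgeR). It passed the threshold without the filter on low counts (adjusted p = 0.0175 by edgeR), with a replicate block (0.0451) and without DDI2-KO replicate 2 (0.0243). Its log2 fold change was smaller with offsets for GC content and length (-0.32) and without DDI2-KO replicate 1 (-0.41). Of the other receptor genes, Tgfbr1 passed in 1 alternative, without DDI2-KO replicate 2. The coreceptor gene Eng had a log2 fold change of -0.31 (SE 0.21). The activin genes Inhbc and Inhbe had log2 fold changes of 0.38 and 0.34, with SEs of 0.20 and 0.43.

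In the iron-sensing list, 0 of 7 genes passed. Tmprss6, whose protease cuts the BMP coreceptor hemojuvelin and so lowers hepcidin, had a log2 fold change of 0.15 (SE 0.19), and Tfr2, the second transferrin receptor, had -0.26 (SE 0.19). Of the 6 Smad genes other than the members, 5 were higher and 0 passed, with log2 fold changes of 0.24 for Smad5 and 0.19 for Smad4 (SEs 0.17 and 0.16). Among inhibitors and modulators, Fkbp1a, which guards type I receptors, had a log2 fold change of 0.12 (SE 0.17) and the ubiquitin ligase gene Smurf2 one of 0.086 (SE 0.17), and both did not pass.

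Of the 8 other SMAD-responsive genes tested, 5 were higher and 3 lower, and Ccn1 alone passed. Ccn2, a relative of Ccn1 named after its values were seen, had a log2 fold change of -1.78 (SE 0.47) and did not pass (adjusted p = 0.0920 by edgeR), though it did with DESeq2, with a replicate block and without WT replicate 1. Tgfbi and Tgif1 had log2 fold changes of 0.17 and 0.22 (SEs 0.16 and 0.17). The E protein genes Tcf12 and Tcf4, whose products the Id proteins bind, had -0.058 and -0.30 (SEs 0.16 and 0.17), and offsets for GC content and length moved both above 0, to 0.030 and 0.0091. Tcf3, the third gene of the list, had -0.80 (SE 0.27, adjusted p = 0.127 by edgeR) and passed without the filter on low counts and without DDI2-KO replicate 1. In IL-6 signalling, 0 of 5 genes passed, with 0.0076 for the coreceptor gene Il6st (-0.045 with upper-quartile factors) and -0.13 for the kinase gene Jak1. Socs3, a STAT3 target that feeds back on the receptor, had the largest value of the list, 0.82 (SE 0.30, adjusted p = 0.154 by edgeR), and passed in the same alternatives as Tcf3. Among 5 other regulators of the hepcidin gene, 0 passed, with 0.23 for the liver nuclear receptor gene Hnf4a and -0.21 for Creb3l3. The largest value of this list was that of Cebpa, a factor of hepatocyte differentiation, 0.66 (SE 0.20, adjusted p = 0.105 by edgeR), which passed with DESeq2, without the filter on low counts, with the offsets and without DDI2-KO replicate 2. Slc40a1, the gene of ferroportin, had a log2 fold change of 0.40 (SE 0.21, adjusted p = 0.298 in edgeR's quasi-likelihood F-test).

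The liver label was checked against 7 hepatocyte markers, which together held 151723 to 183556 CPM, and 0 of them passed. Of the marker lists, immediate early genes, which many stimuli induce quickly, had the largest median log2 fold change, 1.42. Of 9 tested, 8 were higher and 3 rose, Fos, Jun and Dusp1, with log2 fold changes of 2.66, 1.42 and 2.14 (adjusted p = 0.0120, 0.0362 and 0.0438 in edgeR's quasi-likelihood F-test). The summed level of the list was 226 and 211 CPM in WT and 499 and 419 CPM in DDI2-KO. Jun did not pass with limma-voom or limma-trend. Dusp1 did not pass with a replicate block or with offsets for GC content and length. Without WT replicate 2 only Fos of the list passed, 6 passed without DDI2-KO replicate 2, and the median was 0.46 without DDI2-KO replicate 1. The part of these genes in the differences of Id1, Id3 and Smad7 was not tested.

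The 10 markers of sinusoidal endothelium, which makes BMP ligands, summed to 748 and 651 CPM in WT and 714 and 679 CPM in DDI2-KO. Of them 1, Stab2, fell (log2 fold change -1.10, adjusted p = 0.0288 by edgeR), though it did not pass without WT replicate 1. The 8 Kupffer cell and macrophage markers summed to 730 and 624 CPM in WT and 869 and 743 CPM in DDI2-KO, and 0 passed. All 9 stellate cell markers were lower, 711 and 766 CPM in WT and 621 and 622 CPM in DDI2-KO in sum, and 0 passed. Of 5 cholangiocyte markers tested, 0 passed, with sums of 53.1 to 56.5 CPM in WT and 68.8 to 70.5 CPM in DDI2-KO. Most of each sum was Spp1, with 46.3 to 51.9 CPM in WT and 62.4 to 64.2 CPM in DDI2-KO.

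Red cell genes, which follow the blood left in the tissue, summed to 109 and 210 CPM in WT and 79.3 and 68.3 CPM in DDI2-KO. All 5 were lower and 1, Hba-a1, fell (log2 fold change -1.94, adjusted p = 0.0338 by edgeR), and it did not pass without DDI2-KO replicate 1 or without DDI2-KO replicate 2. The 5 lymphocyte markers summed to 25.1 to 25.5 CPM in WT and 17.8 to 20.8 CPM in DDI2-KO, and 0 passed. Acute-phase genes, which inflammation raises with hepcidin, summed to 8469 and 7712 CPM in WT and 8965 and 9212 CPM in DDI2-KO, and 0 of 10 passed. Most of this sum was Fgg, with 5419 CPM in WT replicate 1. Of the 10 acute-phase genes, WT replicate 1, the low library for Hamp and Hamp2, was the highest for Lcn2, Orm1, Orm2 and Crp and the lowest for Saa1, Saa3 and Steap4. No gene of these lists was at 0 in all libraries, and their part in the members' differences was not tested.

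**Figure D5:**
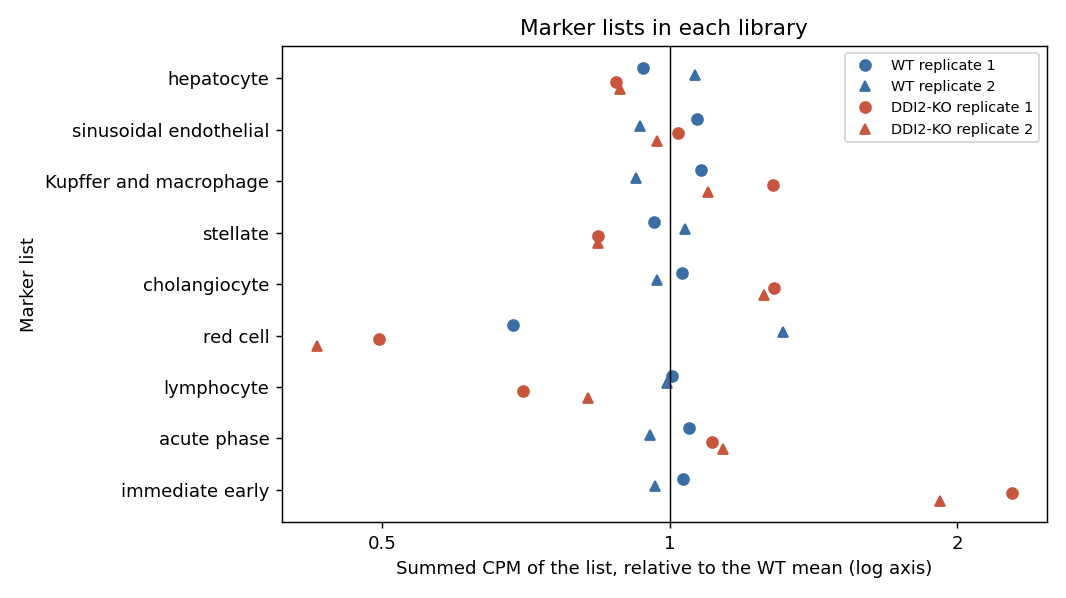
Summed CPM of each marker list in each library, relative to the WT mean of the list on a log axis, with symbols as in the plot of the members. Immediate early genes were higher in both DDI2-KO libraries (499 and 419 CPM, beside 226 and 211 in WT) and red cell genes lower, while the sinusoidal endothelial sums of the genotypes overlapped.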

How the data were processed

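Liver mRNA of untreated mice was sequenced as 4 libraries. The authors deposited raw counts of reads per Ensembl gene, without normalization. Per the submitters' processing notes, cutadapt 1.8, STAR 2.5.2b, HTSeq 0.6.1 and the build GRCm38 were used. The annotation release and strand setting are not given in the sources used here. GENCODE vM21 supplied symbols and coordinates (GRCm38) for 48349 of 48709 identifiers. The counter's summary lines were left out. Relative to the reads on genes, reads on no gene were 5.11% and 4.70% in WT and 2.53% and 3.65% in DDI2-KO. Ambiguous reads, which fit more than 1 gene, were 2.50% and 2.54% in WT and 3.49% and 3.66% in DDI2-KO. Alignments counted as not unique were 65.8% in WT replicate 1, 51.8% in WT replicate 2, and 49.2% and 47.3% in DDI2-KO. The part of these differences in the results was not tested.

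Counts were scaled by TMM, filtered by filterByExpr and compared with glmQLFit (robust) and glmQLFTest of edgeR 4.0.16 in R 4.3.3, with genotype as the only term and Benjamini-Hochberg adjustment over 13699 genes. The study used limma's moderated test, run here as an alternative. The standard error is the log2 fold change over the square root of F. The members and lists were chosen with earlier results of these data known. Named genes are the members, the genes next to Hamp and Hamp2, list genes with an adjusted p under 0.05, the 2 genes of each list with the highest mean CPM, and the 3 profiles nearest to Id3 and to Smad7. The values of 1 list gene are not reported here, though it counts in the list totals. Fos, Jun, Dusp1, Stab2, Hba-a1, Ccn2, Tgfbr1, Tcf3, Socs3, Cebpa, Adgre1, Cd68, Rgs5, Spp1 and the acute-phase genes were named after their values were seen.

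Alternatives were RLE, upper-quartile and library-total scaling, DESeq2 1.42.0, limma-voom and limma-trend (limma 3.58.1, prior count 2), no filter, a filter at a mean of 1 CPM, a fit that is not robust, a replicate block, offsets for GC content and length, each library left out, and an adjusted p of 0.1. The test was tested on simulated data. The replicates were compared by chi-square over genes, which per degree of freedom was 64.7 in WT and 34.7 in DDI2-KO, above sampling noise.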

Additional observations from a re-analysis of the deposited data

How the results depend on the processing

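With 2 libraries per group, the counts past an adjusted p of 0.05 moved with the method. Over all genes the count was 346, and 940 with DESeq2, 136 with limma-voom, 139 with limma-trend, 1544 with no filter on low counts, 152 with no robust estimation, 827 with offsets for GC content and length and 1281 at an adjusted p under 0.1. It ran from 153 to 631 with each library left out, where a lone library is assumed to vary like the other group. The 2 members called became 5 with DESeq2, 1 with limma-voom, limma-trend or no robust estimation, and 4 with no filter or at an adjusted p under 0.1. They ran from 0 to 5 with a library left out. Since the set was chosen from this contrast, these counts do not test the members. Over the 15 alternatives the log2 fold change ran from 1.08 to 1.68 for Id3 and from 0.99 to 1.69 for Smad7. It ran from 1.17 to 2.35 for Id1, from 0.51 to 0.90 for Id2 and from 0.58 to 1.03 for Atoh8. That of Id4 ran from -0.55 to -0.053 and that of Bmp6 from -0.59 to -0.18. The number of members higher ran from 5 to 8 and their median log2 fold change from 0.26 to 1.19 with a library left out. The pathway genes called higher were 1, and 2 with DESeq2, 3 with no filter, 2 with offsets and 1 to 2 with a library left out. Those called lower were 1, and 2 with DESeq2, 3 with no filter, 2 at an adjusted p under 0.1 and 1 to 3 with a library left out. The cause of these differences was not tested.

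The labels number the libraries of each genotype 1 and 2, with no statement of pairing, and the differences between replicates 1 and 2 correlated at 0.059 between the genotypes over genes, so the numbers were not taken as pairs. With a replicate block 1108 genes, 4 members and 3 pathway genes in the direction of lower were called.

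Of the 23 pathway genes named for their lists, the call of Bmpr2 alone changed with a setting, and 9 changed sign somewhere. The median of all tested genes was -0.015, and 0.034 with library totals only. With each library left out, the log2 fold change ran from -0.78 to 0.024 for Smad6, from -0.055 to 1.35 for Hamp, from -0.12 to 1.79 for Hamp2, from -0.40 to 0.074 for Bmp2, from -0.24 to 0.85 for Inhbe (-0.038 without WT replicate 2), from -0.032 to 0.32 for Tmprss6, from -0.014 to 0.25 for Fkbp1a, from -0.077 to 0.24 for Smurf2, from -0.11 to 0.00079 for Tcf12, from -0.081 to 0.10 for Il6st (-0.026 without DDI2-KO replicate 1) and from -0.50 to 0.033 for Creb3l3. With offsets Tcf12 was 0.030 and Tcf4 0.0091. Il6st was -0.045 with upper-quartile factors and -0.011 with a mean of at least 1 CPM. Counts of 29 to 80 reads limit Id4 and Smad6.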
